A study of Mus musculus with 19 samples.

Results

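Cebpa and Cebpb encode C/EBPα and C/EBPβ, leucine zipper transcription factors of the CCAAT/enhancer-binding protein family. The accessible chromatin around both genes was described in primary mouse bone marrow-derived macrophages. Regions were taken from one consensus peak list on mm39. They were chosen by position, as every peak that overlaps chromosome 7 from 34780000 to 34880000 (Cebpa, start near 34818718, plus strand) or chromosome 2 from 167490000 to 167620000 (Cebpb, start near 167530835, plus strand). The rule gave 24 peaks around Cebpa and 33 around Cebpb, 57 of the 140383 peaks in the list.

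C/EBP proteins bind DNA as dimers, with each other or with other leucine zipper proteins. C/EBPα is needed for the passage from early myeloid progenitors to granulocyte and monocyte precursors, and it also acts in liver and fat. C/EBPβ is known for its part in macrophage activation, where it acts at many genes induced by bacterial products, and one mRNA gives rise to long and short forms of the protein with opposing activity. Both genes lack introns, so a peak beyond the short transcribed unit lies outside the gene itself.

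ATAC-seq, in which the Tn5 transposase cuts and tags open DNA, was used to measure accessibility. The labels describe 10 Smarca5-/- samples (Smarca5lox/lox Csf1r-Cre) and 9 wild-type samples (Csf1r-Cre), all carrying the Cre driver and all given 4-hydroxytamoxifen daily over 7 days of differentiation. The product of Smarca5 is the ATPase subunit of several ISWI remodelling complexes, and the Csf1r promoter directs Cre to cells of the macrophage lineage. Smarca5-/- macrophages were untreated (2 samples), given LPS at 10 ng/ml for 1 h (2) or 2 h (2), or given IFNb at 100 U/ml for 1 h (2) or 2 h (2). Wild-type macrophages were untreated (2), given LPS at 10 ng/ml for 1 h (2) or 2 h (2), or given IFNb at 100 U/ml for 1 h (1) or 2 h (2). LPS is a bacterial cell wall product and IFNb is a type I interferon. The sources used here give neither strain nor age of the mice.

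The list holds one set of values for a peak and names no sample, so no value below can be tied to a genotype or treatment, and a peak need not rest on all groups. No value has a replicate error, no statistical test was made, and the depth is unknown. A value of the list cannot tell a region open in few cells from one partly open in all. The genes that mark macrophages could not be looked up in mm39, so the labelled cell type was not checked. Distal regions are called that by distance alone, since accessibility does not show that a region acts as an enhancer.

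The promoters of the genes are shown first, because each gene start lies inside a peak and the peaks there differ in fold and width. Both genes were matched by symbol in the RefSeq promoter table (build GRCm38.p6), which gives 250 bases before and 50 bases from the start on. The sequences below are on the plus strand of that build, at chr7:35119043-35119342 for Cebpa and chr2:167688665-167688964 for Cebpb. These coordinates are not those of the peaks, which are on mm39. Capitals mark every match to TATAAA and to TGACG, the core of a cyclic AMP response element, on either strand.
Cebpa: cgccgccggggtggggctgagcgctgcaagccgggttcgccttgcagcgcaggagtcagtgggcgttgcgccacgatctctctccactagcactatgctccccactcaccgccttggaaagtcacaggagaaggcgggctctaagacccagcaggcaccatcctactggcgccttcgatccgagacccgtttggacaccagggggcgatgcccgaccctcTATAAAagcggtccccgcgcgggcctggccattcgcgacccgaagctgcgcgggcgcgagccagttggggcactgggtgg
Cebpb: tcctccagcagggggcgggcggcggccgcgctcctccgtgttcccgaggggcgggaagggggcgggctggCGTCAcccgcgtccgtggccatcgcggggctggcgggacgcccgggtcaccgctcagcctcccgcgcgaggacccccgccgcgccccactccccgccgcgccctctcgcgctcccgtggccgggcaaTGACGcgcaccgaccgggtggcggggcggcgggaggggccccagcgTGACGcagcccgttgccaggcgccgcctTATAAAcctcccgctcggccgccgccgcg

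The Cebpb promoter was the more GC-rich. The Cebpa promoter had a GC content of 67.3% and 29 CpG dinucleotides, and the Cebpb promoter a GC content of 80.7% and 50 CpG dinucleotides. The median of 32534 distinct mouse promoters of the same length was 53% GC and 7 CpG dinucleotides. The GC content exceeded that of 86.1% of promoters at Cebpa and 99.2% at Cebpb.

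TGACG was found 0 times in the Cebpa promoter and 3 times in the Cebpb promoter, against at least 1 match in 20.9% of all promoters. Counting the first base of the gene as 1 and the base before it as -1, these matches began at -180 on the minus strand and at -53 and -7 on the plus strand. CREB, the cyclic AMP response element-binding protein, is known in rat to act through elements of this kind in the Cebpb promoter. TATAAA, searched after the sequences were seen, began at -30 in Cebpa and at 22 in Cebpb, within the listed gene, and was present in 13.6% of promoters. GGGCGG, the core of the Sp1 box and likewise searched afterwards, had 0 matches in Cebpa and 5 in Cebpb, and at least 1 match in 35.9% of promoters. These shares count promoters with any match and not the number of matches. They are over all promoters and were not adjusted for GC content, which is high at Cebpb.

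The other motifs did not separate the promoters. Both strands were searched for TTGCGCAA, TTGCGTAA and TTNCNNAA (C/EBP), GAGGAAGT and its last bases GGAAGT (PU.1), TGANTCA (AP-1), TGACGTCA (the full cyclic AMP response element, which contains TGACG) and the interferon-stimulated response element. None of these occurred in either 300 base window. They were present in 0.184%, 0.169%, 40.7%, 3.11%, 23.7%, 7.79%, 1.80% and 3.45% of all promoters, in the same order. A loose NF-kB motif, GGG and CC with any 5 bases between them, had 3 matches in each promoter, some overlapping on opposite strands and 1 in Cebpb overlapping a TGACG match. It was present in 51.0% of promoters. A match is a description of letters and not a bound site, and a site that departs from the searched letters would be missed.

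The start of Cebpa lay in the larger of a pair of neighbouring peaks. The peak over the start ran from 34818363 to 34818803, or from 355 bp before to 85 bp after the start, and was 441 bp wide. Its fold, the authors' enrichment over local background, was 22.3, above 88.7% of peaks in the list. Its −log10 q, the peak caller's measure of confidence, was 712, above 97.3% of the list and the highest in the Cebpa window. A second peak of only 121 bp lay 289 bp upstream of it, from 34817953 to 34818073, with a fold of 16.4 and a −log10 q of 536. It was the narrowest peak around Cebpa and had the second highest −log10 q there.

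The start of Cebpb lay in a wide peak of low fold. This peak ran from 167530556 to 167531210, or from 279 bp before to 375 bp after the start, and was 655 bp wide, above 97.4% of the list in width. Its fold was 6.90, above only 26.7% of the list, whereas its −log10 q of 78.4 was above 66.0% of the list. The nearest peaks were also weak. A peak 3.60 kb upstream had a fold of 5.01, and a peak 1.75 kb downstream had a fold of 4.25. If the listed start is the same base in both builds, each promoter sequence printed above lies wholly within the peak over its start.

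Set against the distal peaks of its own locus, the start peak therefore ranked high at Cebpa and low at Cebpb. Distal peaks were those with a summit over 1000 bp from the start, 22 of 24 around Cebpa and 32 of 33 around Cebpb. The Cebpa start peak had 1.82 times the median distal fold of 12.2, and 3 of 22 distal peaks had a higher fold. The Cebpb start peak had 0.749 times the median distal fold of 9.21, and 24 of 32 distal peaks had a higher fold. By −log10 q, 0 of 22 distal peaks exceeded the start peak at Cebpa and 19 of 32 did at Cebpb. In width, 2 distal peaks exceeded the start peak at Cebpa and 1 did at Cebpb.

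**Figure D1:**
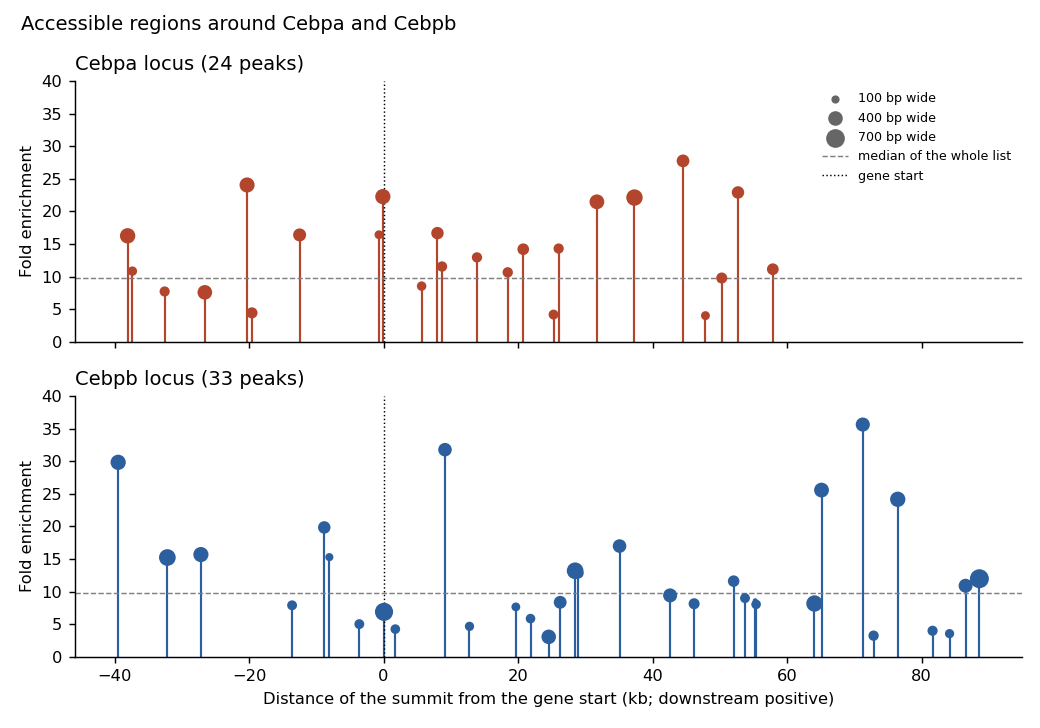
Fold enrichment of each peak against the distance of its summit from the gene start in kb, for the 24 peaks around Cebpa (upper panel) and the 33 around Cebpb (lower panel). Point size gives peak width, the dashed line is the median fold of the whole list (9.85) and the dotted line the gene start. The peak at the start reaches a fold of 22.3 at Cebpa and 6.90 at Cebpb, and the highest peak at Cebpb, of fold 35.6, lies 71.3 kb downstream.

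Most strong distal peaks of Cebpa lay downstream of the gene, with 1 upstream. The Cebpa window itself reaches farther downstream (61.3 kb) than upstream (38.7 kb). Of the peaks, 6 of 24 around Cebpa and 5 of 33 around Cebpb had a fold of 20 or more, or 25% and 15.2%, against 15.0% of the whole list. The Cebpb share is near that background. The peaks next below this limit had a fold of 16.7 at Cebpa, 8.02 kb downstream, and 19.8 at Cebpb, 8.82 kb upstream. The strongest, of fold 27.7, lay on chromosome 7 from 34863108 to 34863401, 44.5 kb downstream. It was followed by a fold of 24.1 at 34798185 to 34798617, 20.3 kb upstream, and a fold of 22.9 at 34871337 to 34871614, 52.7 kb downstream. The remaining strong distal peaks, of fold 22.1 and 21.5, had their summits 37.3 and 31.7 kb downstream.

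The peak at 37.3 kb was also the widest around Cebpa. It ran from 34855764 to 34856285, 522 bp, with a −log10 q of 156. An enhancer of mouse Cebpa that is active in myeloid progenitors and bound by PU.1 and other lineage factors is known at about this distance downstream of the gene. The match is by distance alone. Relative to its fold, its −log10 q was modest, at 0.754 times the median of peaks in the same percentile of fold.

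The strong peaks of Cebpb were all distal, as were 32 of its 33 peaks. As at Cebpa, 1 strong distal peak lay upstream and the others downstream. More than 50 kb downstream lay 3 of the 5 strong peaks and 13 of all 33 peaks. The Cebpb window reaches farther downstream than upstream, and farther downstream than the Cebpa window. The strongest peak, of fold 35.6, lay on chromosome 2 from 167601925 to 167602296, 71.3 kb downstream of the start, and its fold exceeded 99.5% of the list. Its −log10 q of 1912 exceeded 99.9% of the list. Its neighbours at 65.1 and 76.5 kb had folds of 25.6 and 24.2, so that 3 of the 5 strong peaks had their summits between 65.1 and 76.5 kb downstream. The fold of the highest was 5.17 times that of the start peak.

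The other strong peaks around Cebpb lay closer to the gene or upstream of it. A peak of fold 31.8 and −log10 q of 696 lay 9.14 kb downstream, from 167539824 to 167540161, with 3336 bp to the next peak on its far side and 7145 bp on its near side. A peak of fold 29.8 and −log10 q of 981 lay 39.5 kb upstream, from 167491171 to 167491613, and was the first peak of the window. The widest peak around Cebpb, 720 bp, was the last of the window, 88.6 kb downstream, with a fold of 12.0 and a −log10 q of 482.

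The neighbouring genes were taken by order, without positions. In the RefSeq table of GRCm38.p6, used only in this way, Cebpg, a further C/EBP gene, and the predicted gene Gm45095 precede Cebpa and Slc7a10, an amino acid transporter gene, follows it. Tmem189 and the ubiquitin-conjugating enzyme variant gene Ube2v1 precede Cebpb, and Ptpn1, a tyrosine phosphatase gene, follows it. The noncoding RNA gene Gm35611 is listed directly before Cebpa and Gm35724 directly after it. The noncoding RNA gene Gm14320 is listed directly before Cebpb and A530013C23Rik directly after it. Which of these genes a peak belongs to, or acts on, was not tested.

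Peak number depended on how far the windows reach. The Cebpa window held 24 peaks in 100 kb, or 2.40 per 10 kb, and the Cebpb window 33 peaks in 130 kb, or 2.54 per 10 kb. The autosomes and X together had 0.547 peaks per 10 kb between the first and last peak of each chromosome. The windows reach 38.7 kb upstream and 61.3 kb downstream of Cebpa, and 40.8 kb upstream and 89.2 kb downstream of Cebpb. Within the same reach of 38.7 kb upstream and 61.3 kb downstream, there were 24 peaks around Cebpa and 23 around Cebpb. Of the 33 peaks of the Cebpb window, 1 lay farther upstream and 9 lay farther downstream than that reach. Within that reach, 6 of 24 peaks around Cebpa and 1 of 23 around Cebpb had a fold of at least 20, against 15.0% of the list. The peak of fold 29.8 that lies 39.5 kb upstream of Cebpb was just beyond that reach.

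**Figure D2:**
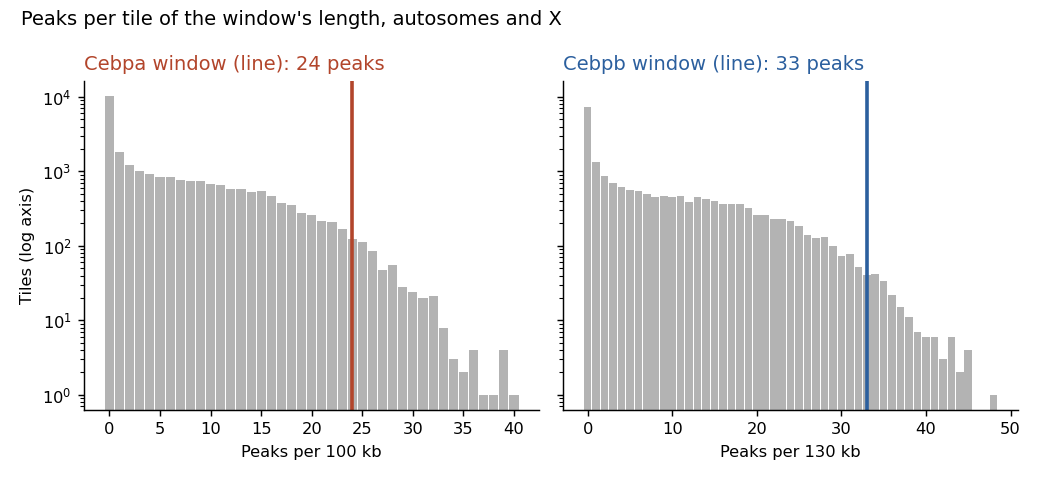
Number of peaks in tiles of 100 kb (left, for Cebpa) and 130 kb (right, for Cebpb) along the autosomes and X, with the number of tiles on a log axis. Coloured lines mark the windows of Cebpa (24 peaks) and Cebpb (33 peaks), which lie towards the right end of both distributions.

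Both windows were among the peak-rich parts of the genome. The 24 peaks of the Cebpa window exceeded the number in 97.9% of 25595 fixed tiles of 100 kb, whose median was 2. The 33 peaks of the Cebpb window exceeded the number in 99.0% of 19686 fixed tiles of 130 kb, whose median was 3. Peaks covered 6297 bp or 6.30% of the Cebpa window and 9896 bp or 7.61% of the Cebpb window, against 1.36% of the autosomes and X. The highest fold of the Cebpa window, 27.7, was less unusual, above that of 79.8% of tiles, while that of the Cebpb window, 35.6, was above that of 96.8%. These percentiles describe the list, and the windows were chosen for genes important in these cells.

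Peaks were placed differently along the loci. Around Cebpa, 9 peaks lay upstream of the start (2.32 per 10 kb) and 15 downstream (2.45 per 10 kb). Around Cebpb, 7 lay upstream (1.71 per 10 kb) and 26 downstream (2.92 per 10 kb). The median distance of a summit from the start was 25.7 kb at Cebpa and 35.1 kb at Cebpb, but 25.7 and 26.3 kb within the same reach. Cebpa had 0 peaks between 1 and 10 kb upstream and 3 between 1 and 10 kb downstream, whereas Cebpb had 3 and 2. The stretch more than 50 kb downstream held 3 peaks at Cebpa, over 11.3 kb, and 13 at Cebpb, over 39.2 kb.

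Gaps also differed in place. The longest stretch without a peak around Cebpa was 11570 bp, from 12.3 to 0.765 kb upstream, and so ended at the start peaks. The longest around Cebpb was 13195 bp, from 26.9 to 13.7 kb upstream. Joining neighbours no more than 5000 bp apart gave 10 groups in each window. The largest size at Cebpa was 5 peaks, and more than 1 group reached it. A group of 5 had summits from 13.9 to 26.0 kb downstream and no peak of fold 20 or more. Another group of 5 had summits from 44.5 to 57.9 kb downstream. It began with the strongest peak of that locus, of fold 27.7. At Cebpb the largest group held 7 peaks, with summits from 71.3 to 88.6 kb downstream, and also began with the strongest peak of its locus. One pair around Cebpb touched: a fragment of 23 bp and a peak of 148 bp, 55.3 and 55.4 kb downstream, with folds of 8.61 and 8.05.

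Peaks around Cebpa had the higher median fold. The median fold was 13.6 at Cebpa, with quartiles of 9.46 and 17.9, and 8.996 at Cebpb, with quartiles of 6.90 and 15.3, against 9.85 in the list. At or above the list median lay 17 of 24 peaks of Cebpa and 15 of 33 of Cebpb, against 50.0% by definition. Fold ranged from 4.00 to 27.7 at Cebpa and from 3.06 to 35.6 at Cebpb, so Cebpb had both the weakest and the strongest peaks. A fold below 5 was found for 3 of 24 peaks of Cebpa and 6 of 33 of Cebpb, against 10.4% of the list.

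Median width was 226.5 bp at Cebpa and 280 bp at Cebpb, against 196 bp in the list. Within the same reach the order turned, with 226.5 bp at Cebpa and 209 bp at Cebpb. A width of 300 bp or more was reached by 7 of 24 peaks of Cebpa and 15 of 33 of Cebpb, against 24.9% of the list. Width ranged from 121 to 522 bp at Cebpa and from 23 to 720 bp at Cebpb. Across peaks, which share libraries and depth, Spearman's rho between fold and width was 0.61 at Cebpa (24 peaks), 0.46 at Cebpb (33 peaks) and 0.39 in the list. Fold showed almost no rank relation to distance from the start, with rho of -0.08 at Cebpa and 0.10 at Cebpb.

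**Figure D3:**
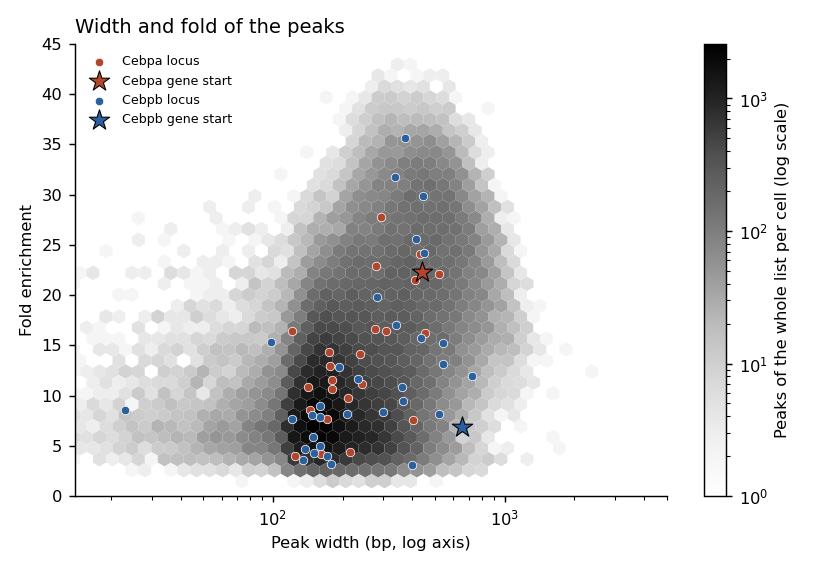
Fold enrichment against peak width in bp (log axis) for the peaks of Cebpa (red) and Cebpb (blue), over the whole list (grey cells, darker for more peaks, log scale). Stars mark the peaks at the gene starts: 441 bp and fold 22.3 at Cebpa, 655 bp and fold 6.90 at Cebpb. The axes leave out list peaks of fold above 45 or of extreme width.

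Most peaks around Cebpb had a higher −log10 q than their fold would rank them for. The median −log10 q was 72.4 at Cebpa and 147 at Cebpb, against 45.3 in the list, an order opposite to that of fold. Within the same reach, the medians were 72.4 at Cebpa and 96.4 at Cebpb. The 95% order-statistic intervals over peaks of the whole windows, 47.7 to 181 at Cebpa and 41.1 to 207 at Cebpb, overlapped widely. The percentile of −log10 q in the list exceeded that of fold for 10 of 24 peaks of Cebpa and 28 of 33 of Cebpb, against 38.1% of the list. Each −log10 q was also divided by the median of list peaks in the same percentile of fold. This ratio had a median of 1.16 at Cebpa and 2.43 at Cebpb (1.16 and 2.34 within the same reach) and exceeded 3 for 3 of 24 and 14 of 33 peaks, against 11.4% of the list.

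At Cebpa, the 3 peaks with a ratio above 3 included both peaks next to the start, with ratios of 3.45 at the start and 5.42 for the narrow peak upstream. At Cebpb, the start peak had a ratio of 4.56, and 8 of the 14 peaks above 3 lay more than 50 kb downstream. The highest ratio there, 10.0, belonged to the widest peak, 88.6 kb downstream. A peak 64.1 kb downstream had a fold of only 8.18 but a −log10 q of 207 and a ratio of 8.98. It was separated by 478 bp from the strong peak at 65.1 kb. The peak caller's fold is relative to local background, and that background is not given in the list, so its part in these ratios was not tested.

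**Figure D4:**
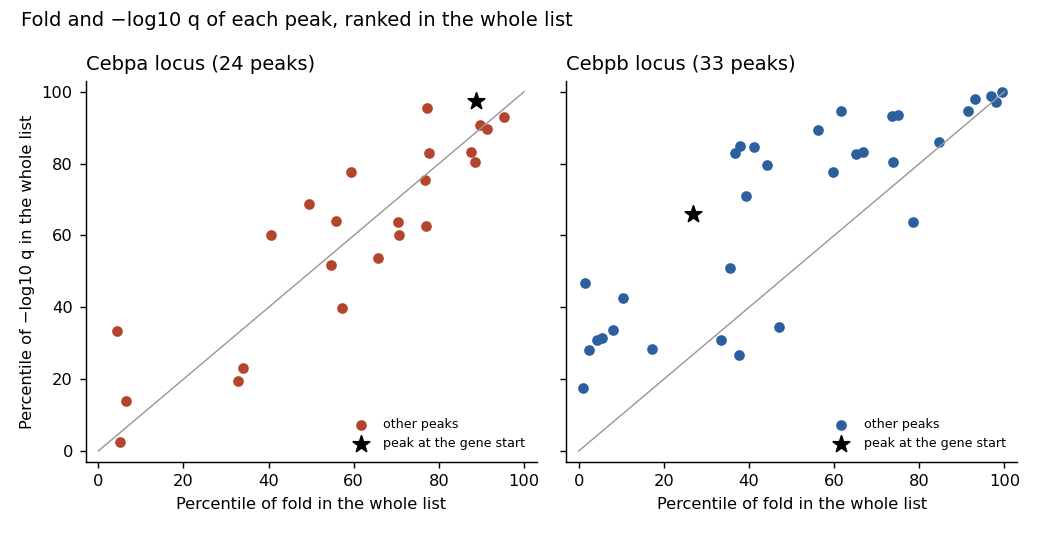
Percentile of −log10 q against percentile of fold, both in the whole list, for each peak of Cebpa (left) and Cebpb (right). Stars are the peaks at the gene starts and the line marks equal percentiles. Above the line lie 10 of 24 peaks of Cebpa and 28 of 33 of Cebpb.

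Most deposited scores of these peaks, like most in the whole list, were not whole numbers. The peak caller writes a score as a whole number, and 3 of 24 scores at Cebpa and 2 of 33 at Cebpb were whole, against 17.8% in the list. A score that became whole only when multiplied by 20 was found for 5 of 24 peaks of Cebpa and 6 of 33 of Cebpb, against 14.6% of the list. At Cebpa these included the strong peaks 20.3 kb upstream and 52.7 kb downstream. At Cebpb they included those at 65.1 and 71.3 kb downstream. The scores of the start peaks became whole at a multiplier of 10 for Cebpa and 5 for Cebpb. Fractions of this kind can come from averaging several calls, but how calls were merged is not stated, and a multiplier of 20 is not that of a plain mean over 19 samples.

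The window edges cut no peak. The outermost peaks of the Cebpa window, 38.1 kb upstream and 57.9 kb downstream, had folds of 16.2 and 11.1. The next peaks outside, 52.5 kb upstream and 66.2 kb downstream, had folds of 5.97 and 5.49. The outermost peaks of the Cebpb window, 39.5 kb upstream and 88.6 kb downstream, had folds of 29.8 and 12.0. The next peaks outside, 47.4 kb upstream and 105 kb downstream, had folds of 11.9 and 8.29. The last peak of the Cebpb window ended 7 bp before the edge, and the next peak began 15735 bp beyond it.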

How the data were processed

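Per the submitters' processing notes, the build was mm39 and the tools were MACS2 2.2.7.1, deepTools 3.5.1, STAR 2.7.9a and Picard 2.27.4. The sources used here do not say what each tool did, whether reads were shifted, which threshold was set or how calls were merged into one list. Per the labels' protocols, fragments under 600 bp were selected and sequenced as paired-end reads of 51 bp. The deposited list has no header; in the narrowPeak layout the authors' columns hold the score, the fold ratio over local background, −log10 q and the summit offset. It was used as one pooled column set for 19 samples in 10 groups.

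Coordinates were read as counted from 1, since no summit then passed its peak's end, against 74 peaks when counted from 0. Windows and gene starts were read from the selection rule, and distances were taken from the start to the summit. A percentile is the share of list peaks with a lower value. Tiles ran between the first and last peak of each autosome and X. Scores were called whole within 1e-06. Peaks named were the one at the start, the 5 of highest fold, the widest, the farthest on each side and those at the window edges; others were chosen after their values were seen. The members, measures and motifs were chosen with earlier results of these data known. The tile counts and the median interval were tested on simulated data, and the percentile, merging and motif steps on small fixed inputs with known answers. No test was run, because no value belongs to a sample. Planned results on other C/EBP genes, lineage regulators, cell type markers and motifs in peaks are not analysed here, because no gene positions or genome of mm39 were used. Software was Python 3.11.15 with pandas 2.3.3, numpy 2.4.6, matplotlib 3.10.9 and scipy 1.17.1.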

Additional observations from a re-analysis of the deposited data

How the results depend on the processing

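The windows cut no peak, Cebpa had no touching peaks, the same reach is its own window and merging leaves covered length as it is, so 23 alternative values could not differ and say nothing about stability. Of the other 43 alternative values over 20 results, 39 stayed within the 95% order-statistic interval of a median, the exact binomial interval of a share, or 1.5 times a count or covered length, or, for the start peak over the distal median, on the same side of 1. These intervals treat peaks as independent. When peaks below the median fold of the list were left out, Cebpb kept 15 peaks with a median fold of 15.7 over 5762 bp, which follows from removing weak peaks. Within the same reach around both starts, Cebpb peaks covered 6133 bp, since the far downstream peaks were left out. Of 22 differences between the loci under an alternative that could alter them, 18 had the direction reported. The 4 others were peak number (17 at Cebpa and 15 at Cebpb for peaks at or above the median fold; 24 and 23 within the same reach), median width (226.5 and 209 bp within the same reach) and covered length (6297 and 6133 bp within the same reach). The difference in median fold kept its direction in the 5 alternatives that could alter it, from 0.70 to 4.96, Cebpa minus Cebpb. The smallest, 0.70, came from keeping only peaks at or above the median fold of the list (16.4 and 15.7), a filter on fold itself. The filter on −log10 q is also tied to fold, with a rho of 0.84 in the list. The −log10 q of the start peak over the distal median, an alternative chosen after seeing the data, as were distal peaks only and the same reach for −log10 q, was 10.1 at Cebpa and 0.516 at Cebpb. No paired analysis was possible because peak values are not split by sample; leaving out a replicate was not run for the same reason. Unknown depth limits what the lack of a peak can show.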

Other observations

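The stretches of equal length on each side of the windows were examined after the values above were seen. The Cebpa window held 24 peaks with a median fold of 13.6, against 16 in the 100 kb before it (median fold 9.68) and only 5 in the 100 kb after it (median fold 15.3). The Cebpb window held 33 peaks with a median fold of 8.996, against 25 in the 130 kb before it (median fold 9.27) and 25 in the 130 kb after it (median fold 9.75). Peaks with a fold of 20 or more numbered 6 of 24 in the Cebpa window, 2 of 16 before it and 1 of 5 after it. For Cebpb they numbered 5 of 33 in the window, 3 of 25 before it and 2 of 25 after it. The share in the whole list was 15.0%. The highest fold before the Cebpa window, 30.3, exceeded the highest inside it, 27.7, while neither side of the Cebpb window reached its 35.6.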
